A study of Mus musculus with 12 samples.

Results

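This report concerns 10 genes for matricellular proteins and matrix glycoproteins, Thbs1, Thbs2, Thbs4, Aebp1, Sparc, Postn, Tnc, Fn1, Vcan and Spp1, out of 54532 genes in each of 2 tables of RNA-seq values from mice that lack an intestinal enhancer of Ctnnb1, the gene for β-catenin. The genes were chosen by name and by measured values: Thbs4 for a small p between genotypes in tumors, and Aebp1 for differences of opposite sign in crypts and tumors. The difference between genotypes therefore helped to choose the genes, so it is given below as a description with no test. RNA came from small intestinal crypts of wild type mice and of mice homozygous for a germline deletion of the enhancer (ieCtnnb1KO), and from colon tumors of APCmin/+ mice and of APCmin/+;ieCtnnb1KO mice, with 3 libraries in each of the 4 groups. All mice were adult and untreated. All tumor mice, controls included, carried the APCmin allele, so the tumor controls were APCmin/+ animals with an intact enhancer and not wild type animals. The deletion was present in every cell type of the knockout mice, crypts were released with EDTA and passed through a strainer, and the tumors were whole tissue. The labels only number the replicates, and the study describes the samples within each group as coming from separate mice.

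Matricellular proteins are secreted into the extracellular matrix, where they regulate how cells attach, migrate and respond to growth factors more than they bear load. Thrombospondins, SPARC, tenascin C, periostin and osteopontin belong to this class, while fibronectin and versican are larger components that build the matrix itself. In the gut they are made mostly by fibroblasts, smooth muscle, vessels and immune cells, and the stroma of tumors is typically rich in them. Bulk RNA cannot tell fewer cells of a type from less RNA per cell, and this holds for every value below.

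Levels are FPKM, fragments per kilobase of transcript at a common library size, which allow genes to be compared per length within a table. The 2 tables were normalized separately, so a level in crypts set beside one in tumors also reflects that. Every FPKM value below 50 times the smallest step of its library was a whole multiple of that step (100% within 0.02), so the fragments behind each value could be recovered. These came to 14457896 to 16156712 fragments on genes per library. Differences are on the log2(FPKM + 0.5) scale, knockout minus control, with the standard error (SE) of the difference between 3 and 3 libraries. This scale understates the differences of genes with low FPKM.

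Ctnnb1, the target of the deleted enhancer, was lower in every knockout library. In crypts its FPKM was 120.6, 134.1 and 122.7 in wild type and 101.7, 104.3 and 104.9 in ieCtnnb1KO libraries. In tumors it was 298.6, 363.5 and 358.0 in APCmin/+ and 279.4, 248.4 and 250.2 in APCmin/+;ieCtnnb1KO libraries. The groups did not overlap in either tissue, in the direction that the labels give. Other libraries stood apart in ways the labels do not give. The summed FPKM of 5 stomach markers (Gkn1, Gkn2, Pgc, Tff2 and Muc5ac) was 159.6 and 90.9 in wild type crypt replicates 1 and 2, and 3.25, 2.01, 5.61 and 1.87 in the other 4 crypt libraries. The most abundant of them was Tff2, and no marker of this list was at 0 in all libraries. The differences of the 4 of the 10 genes that could be compared in crypts, and those of related genes named there, are given below with and without these libraries. Xist, which is transcribed from the inactive X chromosome of females, was at 113.9 and 61.4 FPKM in tumor replicate 3 of each genotype and under 0.1 FPKM in the other 10 libraries.

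In tumors all 10 genes were expressed, and 3 of them, Thbs4, Aebp1 and Sparc, were higher in each APCmin/+;ieCtnnb1KO library than in each APCmin/+ library. None was lower in this sense. Over all genes tested, 11.4% were higher and 10.6% were lower without overlap between the groups, and since this contrast helped to choose the genes, nothing is read from their count. No gene of the 16743 tested passed an adjusted p of 0.05 in limma (0%), and none passed with voom in limma on the recovered fragments. At an unadjusted p under 0.05, 1417 genes were higher (8.46%) and 1004 were lower (6%). With libraries rescaled to the same sum of FPKM, 28.9% of such genes were higher, against 58.5% as deposited.

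**Figure D1:**
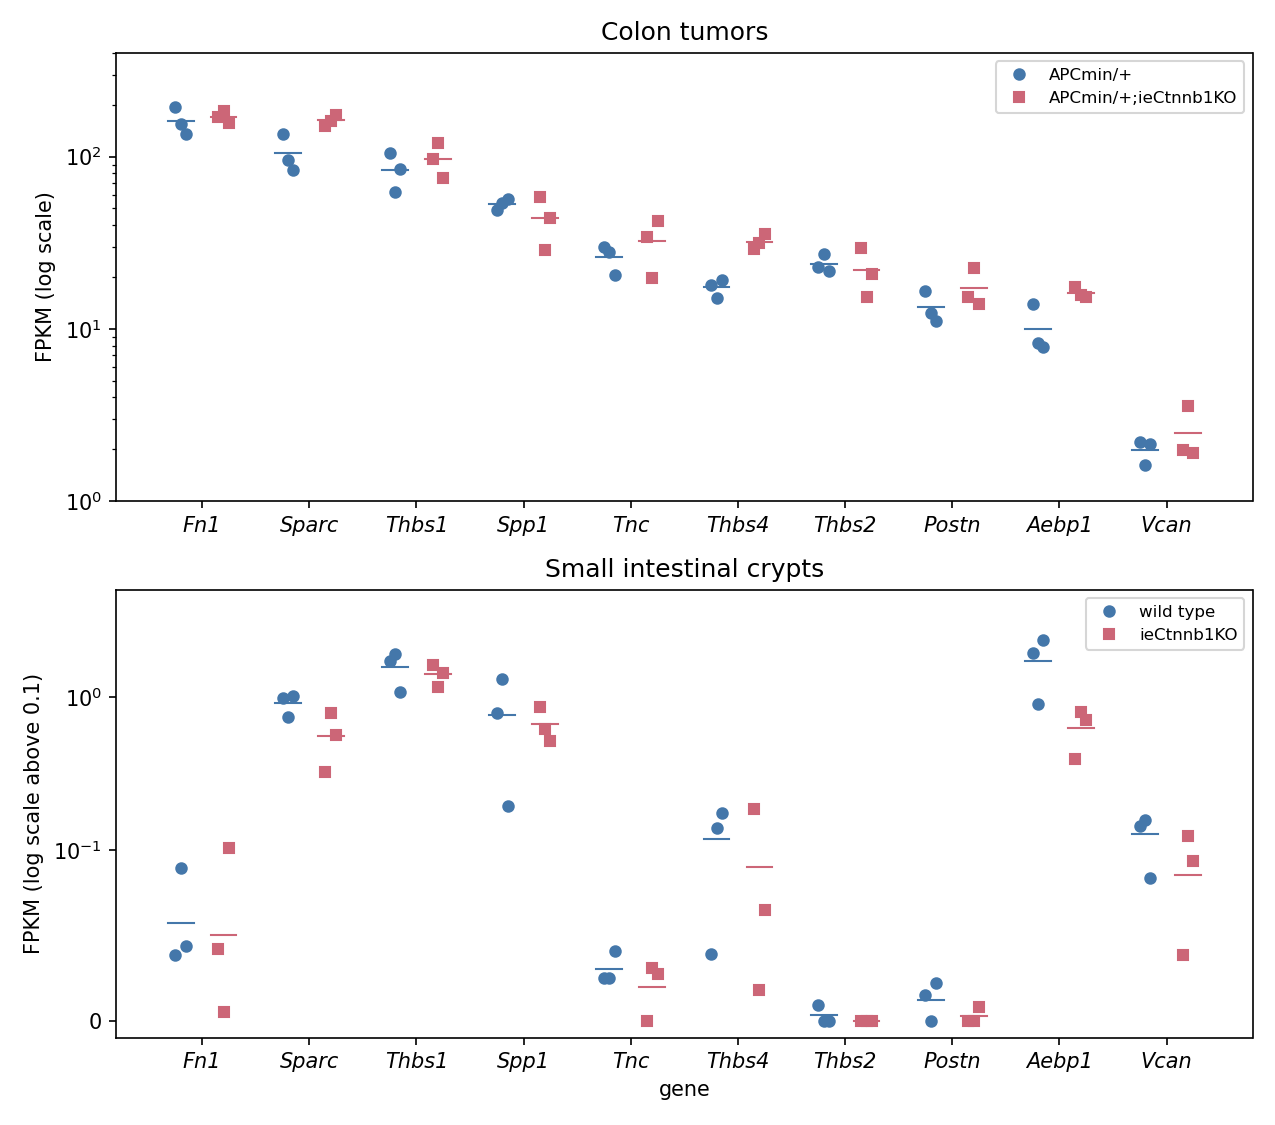
FPKM of the 10 genes in each library, with control libraries as circles, knockout libraries as squares and group means as lines; the tumor axis is logarithmic and the crypt axis is logarithmic above 0.1. Thbs4, Aebp1 and Sparc separate the genotypes in tumors, where Fn1 has the highest mean (160.7 and 170.8 FPKM) and Vcan the lowest (1.99 and 2.48 FPKM), while most of the genes lie near 0 in crypts.

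The thrombospondins are multimeric glycoproteins that bind calcium, integrins and other matrix proteins. Thbs4, which encodes a pentameric member, is on chromosome 13 (ENSMUSG00000021702, mm10 coordinates 92751590 to 92794818, minus strand). Its FPKM in tumors was 17.9, 15.2 and 19.3 in APCmin/+ libraries and 29.2, 31.4 and 35.6 in APCmin/+;ieCtnnb1KO libraries. All 3 knockout values lay above all control values, and the group means were 17.4 ± 2.07 and 32.0 ± 3.24 (SD, n = 3). The difference was 0.86 on the log2 scale (SE 0.13), or a ratio of means of 1.84, on 825 to 1824 fragments per library. In crypts Thbs4 was near the limit of detection, with 2, 7 and 9 fragments in wild type and 10, 1 and 3 fragments in knockout libraries, so no difference was detectable at this depth.

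The promoter window of Thbs4 is shown because this gene had the largest difference of the 10 in tumors. RefSeq windows of 250 bases before to 50 bases after the gene start (GRCm38.p6) were found for 8 of the 10 genes, 11 windows in all, and none was found for Thbs1 and Fn1. They were searched on both strands for CTTTGA (TCF/LEF), TGANTCA (AP-1), GGAATG (TEAD), GTCTAGAC (SMAD) and TATAAA (the TATA box). The TEAD letters were chosen after the Thbs4 sequence had been seen. Of 32851 promoter windows, 16% held the TCF/LEF letters, 7.81% the AP-1 letters, 14.7% the TEAD letters, 0.213% the SMAD letters and 13.6% the TATA letters. None of the 11 windows held the TCF/LEF, AP-1 or SMAD letters, only the Thbs4 window held the TEAD letters, and 5 windows of 4 genes held the TATA letters (Thbs2, Postn, Tnc and Spp1, where the 2 Tnc windows overlap and share the match). Relative to the gene start in RefSeq, the TATA letters began at -126 in Thbs2, -26 in Postn, -126 and -205 in Tnc and -211 in Spp1. The Thbs4 window, chr13:92794769-92795068 on the minus strand, held the TEAD letters 2 times on the opposite strand, in copies that share 1 base, marked by capitals, and no match to the other 4.
Thbs4: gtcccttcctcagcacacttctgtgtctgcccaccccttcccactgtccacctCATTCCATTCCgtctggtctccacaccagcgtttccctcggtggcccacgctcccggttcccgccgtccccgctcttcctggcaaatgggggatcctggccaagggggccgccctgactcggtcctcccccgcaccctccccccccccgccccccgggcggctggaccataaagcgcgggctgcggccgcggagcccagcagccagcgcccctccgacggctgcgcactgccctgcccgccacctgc
The Aebp1 window, chr11:5861616-5861915 on the plus strand, held no match to any of the 5, and its start in RefSeq lies 81 bases before the gene start of the tables.
Aebp1: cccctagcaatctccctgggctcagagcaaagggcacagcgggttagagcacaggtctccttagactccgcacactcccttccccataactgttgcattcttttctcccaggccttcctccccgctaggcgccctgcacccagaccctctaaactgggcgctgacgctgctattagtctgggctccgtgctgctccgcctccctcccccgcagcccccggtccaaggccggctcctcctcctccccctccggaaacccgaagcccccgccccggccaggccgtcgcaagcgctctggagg
A match describes letters in this window and is not a binding site. The Sparc window held no match either, and its start lies 3103 bases inside the gene of the tables.

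Thbs1, the platelet and wound thrombospondin that activates latent TGF-β, was the most abundant thrombospondin in tumors. Its FPKM was 104.7, 62.7 and 84.8 in APCmin/+ and 96.6, 120.6 and 74.7 in APCmin/+;ieCtnnb1KO libraries, a difference of 0.21 (SE 0.29) with overlapping groups. Thbs2, which is mainly a fibroblast product, was at 22.9, 27.2 and 21.7 against 29.6, 15.2 and 20.7 FPKM, with a difference of -0.17 (SE 0.29). Both differences were smaller than their SE. That of Thbs1 was 0.02 without APCmin/+ replicate 2, and that of Thbs2 was 0.06 without knockout replicate 2. In crypts Thbs1 had the highest knockout mean of the 10 genes, with 1.72, 1.90 and 1.08 FPKM in wild type and 1.62, 1.15 and 1.43 FPKM in knockout libraries, which overlapped. The difference there was -0.11, and it was 0.26 without wild type replicates 1 and 2 and 0.01 without wild type replicate 2 alone. Thbs2 was listed at 0 in 5 of the 6 crypt libraries and had 1 fragment in the other.

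Aebp1 encodes a secreted protein, also called ACLP, that binds collagen and is made by fibroblasts and smooth muscle (ENSMUSG00000020473, chromosome 11, 5861947 to 5872088, plus strand). In tumors its FPKM was 13.9, 8.32 and 7.79 in APCmin/+ and 17.4, 15.7 and 15.4 in APCmin/+;ieCtnnb1KO libraries. APCmin/+ replicate 1 lay well above the other controls and closest to the knockout libraries. The difference was 0.71 (SE 0.26), and it was 0.96 without that library. With libraries rescaled to the same sum of FPKM the groups overlapped, with a difference of 0.61. In crypts the FPKM was 1.93, 0.902 and 2.34 in wild type and 0.394, 0.794 and 0.702 in ieCtnnb1KO libraries. Every knockout value lay below every wild type value there, on 56 to 149 fragments in wild type and 26 to 54 in knockout libraries. The difference in crypts was -0.93 (SE 0.35), with means of 1.72 ± 0.741 and 0.630 ± 0.210 (SD, n = 3). Without wild type replicates 1 and 2, which held the stomach markers, it was -1.35 against 1 remaining wild type library. The opposite direction in the tissues is what Aebp1 was chosen for, and the difference between tissues was not tested.

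Sparc encodes a collagen-binding protein that is abundant in stromal and endothelial cells (ENSMUSG00000018593, chromosome 11, 55394500 to 55423183, minus strand). In tumors its FPKM was 135.0, 95.7 and 83.7 in APCmin/+ and 150.2, 161.0 and 175.5 in APCmin/+;ieCtnnb1KO libraries, a difference of 0.65 (SE 0.21). All knockout values were above all control values, and APCmin/+ replicate 1 was again the control nearest to them. In crypts it was at 0.989, 0.742 and 1.01 FPKM in wild type and 0.324, 0.788 and 0.564 FPKM in knockout libraries. These overlapped, because knockout replicate 2 lay above wild type replicate 2, and the difference was -0.44 (SE 0.21). Without wild type replicates 1 and 2 it was -0.54, without knockout replicate 1 it was -0.27, and with voom on the fragments it was -0.78.

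The remaining matricellular genes overlapped between genotypes in tumors. Postn encodes periostin, a fibroblast protein that binds collagen and integrins, and its FPKM was 16.5, 12.3 and 11.1 in APCmin/+ and 15.4, 22.6 and 13.9 in APCmin/+;ieCtnnb1KO libraries. Tnc, for the anti-adhesive protein tenascin C, was at 30.0, 28.0 and 20.5 against 34.3, 19.8 and 42.5 FPKM. The knockout group spread more widely than the control group for both. Spp1 encodes osteopontin, a phosphoprotein of macrophages and other cells that binds integrins and CD44. It was at 49.1, 54.1 and 56.6 against 58.6, 28.5 and 44.2 FPKM, with knockout replicate 2 lowest. The differences were 0.35 (SE 0.27) for Postn, 0.24 (SE 0.36) for Tnc and -0.34 (SE 0.30) for Spp1. Without knockout replicate 2 they were 0.15 for Postn, 0.56 for Tnc and -0.06 for Spp1. That of Tnc was 0.01 without knockout replicate 3, and it turned to -0.15 without replicate 3 of both genotypes, the libraries with Xist. In crypts Postn had 0 to 3 fragments per library and Tnc 0 to 5. Spp1 had 20, 33 and 5 fragments in wild type and 23, 17 and 12 in knockout crypt libraries, with a difference of -0.02 (SE 0.42). This difference was 0.74 without wild type replicates 1 and 2, 0.29 without wild type replicate 2 and -0.40 without wild type replicate 3.

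Fn1 and Vcan encode the structural glycoprotein fibronectin and the large proteoglycan versican. Fn1 had the highest group means of the 10 in tumors, at 193.5, 154.1 and 134.6 FPKM in APCmin/+ and 170.2, 185.3 and 156.8 FPKM in APCmin/+;ieCtnnb1KO libraries. Vcan had the lowest, at 2.204, 1.63 and 2.14 against 1.98, 3.56 and 1.90 FPKM. Both overlapped, with differences of 0.10 (SE 0.17) and 0.22 (SE 0.27). The first turned to -0.02 without APCmin/+ replicate 3 and to -0.01 with the same sum of FPKM, and the second to -0.02 without knockout replicate 2. In crypts Fn1 had 1 to 17 fragments per library and Vcan 9 to 35. Fn1 therefore had a mean of 160.7 FPKM in control tumors and 0.0573 FPKM in wild type crypts, where organ segment, genotype, tissue isolation and normalization all differed and cannot be told apart.

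The order of the means in APCmin/+ tumors was Fn1, Sparc, Thbs1, Spp1, Tnc, Thbs2, Thbs4, Postn, Aebp1 and Vcan. Libraries of neighbours overlapped for Fn1 and Sparc, Sparc and Thbs1, Tnc and Thbs2, Thbs4 and Postn, and Postn and Aebp1. In APCmin/+;ieCtnnb1KO tumors Thbs4 stood before Thbs2, and these overlapped. Fn1 and Sparc overlapped there too, with Sparc above Fn1 in replicate 3 (175.5 and 156.8 FPKM). In crypts only Aebp1, Thbs1, Sparc and Spp1 reached the filter of a mean of 0.5 FPKM over the 6 libraries of both genotypes, and the other 6 genes did not. Aebp1 was the only one of the 10 that did not overlap between genotypes in crypts. Over all 14176 genes tested there, 52.8% had a positive difference, and 5.15% were lower and 6.79% were higher without overlap, and this contrast helped to choose Aebp1. No gene passed an adjusted p of 0.05 in crypts (0%) in limma or with voom, while 335 were lower (2.36%) and 494 higher (3.48%) at an unadjusted p under 0.05. Of these, 59.6% were higher as deposited, 82.5% with the same sum of FPKM and 35.8% with the same sum without the 50 highest genes. Rescaling to the same sum moved the median difference of all tested genes in crypts from 0.01 to 0.14.

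**Figure D2:**
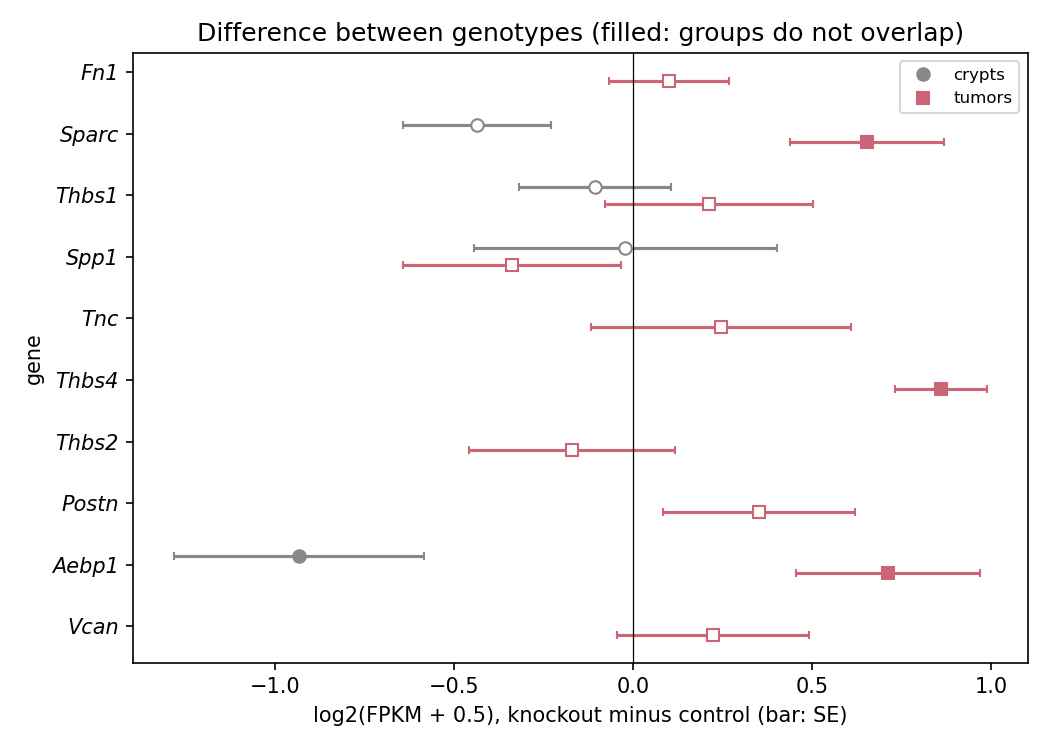
Difference in log2(FPKM + 0.5), knockout minus control, for the 10 genes in tumors (squares) and the 4 that reached the filter in crypts (circles), with bars for the SE and filled symbols where the groups of 3 libraries did not overlap. Thbs4, Aebp1 and Sparc lie at 0.86, 0.71 and 0.65 in tumors, and Aebp1 lies at -0.93 in crypts.

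Summed markers of 4 cell types were higher in each knockout tumor library than in each control library, as Thbs4, Aebp1 and Sparc were. Of 10 fibroblast markers, 9 passed the filter, all 9 had a positive difference, and 5 of them (Pdgfra, Dcn, Col1a1, Col6a1 and Col6a2) did not overlap, beside 51.3% positive and 11.4% higher without overlap among all tested genes. Their summed FPKM was 410.8, 264.4 and 262.8 in APCmin/+ and 418.5, 560.1 and 441.8 in APCmin/+;ieCtnnb1KO libraries, and APCmin/+ replicate 1 was the highest control here as it was for Aebp1 and Sparc. The most abundant was Col1a1, at 137.2, 81.6 and 68.5 against 143.7, 151.2 and 142.9 FPKM. The 8 epithelial markers were higher as well, 7 of them without overlap, with sums of 4342, 4400 and 3838 against 5115, 4972 and 5292 FPKM, and Krt8 was the most abundant. Cdx2, the exception, was at 26.5 FPKM in knockout replicate 2 and 2.01 to 10.2 FPKM in the other 5 libraries. Sums of 8 endothelial markers (88.2, 74.3 and 68.3 against 102.1, 93.5 and 99.2 FPKM, led by Plvap) and of 6 pericyte markers (50.6, 36.1 and 38.7 against 54.0, 56.0 and 57.6 FPKM, led by Rgs5) also did not overlap. Of the 8 endothelial markers, 7 had a positive difference and 4 were higher without overlap. Kdr, Cdh5, Vwf and Tek overlapped, at -0.09, 0.04, 0.05 and 0.10. All 6 pericyte markers had a positive difference, but only Cspg4 was higher without overlap. No marker of these 4 lists was at 0 in all tumor libraries.

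Taken relative to the mean of the fibroblast markers in the same library, Thbs4, Aebp1 and Sparc overlapped between genotypes, with differences of 0.35, 0.20 and 0.14. Relative to the mean of the 8 epithelial markers they overlapped too, with differences of 0.45, 0.31 and 0.25, and on both scales Fn1 was lower in every knockout library. The epithelial scale turned on Cdx2, which was high in knockout replicate 2. Relative to the 7 other epithelial markers, the differences of Thbs4, Aebp1 and Sparc were 0.57, 0.43 and 0.37, Thbs4 was higher in every knockout library, and the other 9 genes overlapped, Fn1 included. Shares of all tested genes without overlap on these scales are not given, so nothing is read from the number of genes that overlapped. The part of these cell types in the differences was not tested.

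Other marker lists in tumors overlapped in their sums, though single genes of some did not. Smooth muscle markers summed to 131.8 to 182.9 FPKM (led by Acta2), macrophage markers to 158.9 to 330.6 (C1qa), platelet markers to 17.3 to 44.8 (Pf4), lymphocyte markers to 75.0 to 262.6 (Jchain), mesothelial markers to 7.31 to 15.6 (Msln) and stomach markers to 0.410 to 2.16 (Pgc). Acta2 and Tagln of the smooth muscle list and C1qa of the macrophage list were higher without overlap (0.32, 0.26 and 0.72), and all 8 macrophage markers had a positive difference. Of the 8 smooth muscle markers, 5 had a positive and 3 a negative difference, with Cnn1, Des and Actg2 at -0.27, -0.18 and -0.01. Tagln had only 13 to 23 fragments per library. Of all tested genes 51.3% had a positive difference, and 11.4% were higher and 10.6% lower without overlap. Among the macrophage markers Itgam, Cd68 and Csf1r were at 0.02, 0.02 and 0.08. These counts are for values as deposited, where the median of all tested genes was 0.01, against -0.09 with the same sum of FPKM. Neutrophil markers summed to 133.9 to 455.4 FPKM and were led by S100a9, at 111.9, 259.9 and 180.2 FPKM in APCmin/+ and 110.0, 51.8 and 110.9 FPKM in APCmin/+;ieCtnnb1KO libraries. S100a9, S100a8 and Cxcr2 were lower without overlap, while Ly6g was higher without overlap.

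Crypts were epithelial by their markers, with sums of 4070 to 5325 FPKM for the epithelial list (led by Krt8), against 2.79 to 7.64 FPKM for the fibroblast list. The fibroblast sum was 7.64, 5.23 and 6.94 FPKM in wild type and 2.79, 5.82 and 3.36 FPKM in ieCtnnb1KO libraries, and its most abundant gene was Dcn. The mesothelial sum, for the cells that cover the outside of the gut, was 6.20, 2.90 and 6.21 against 1.85, 5.19 and 2.11 FPKM, and its most abundant gene was Upk3b. Both sums were high in wild type replicates 1 and 3 and knockout replicate 2. Aebp1 was also highest in wild type replicates 1 and 3. Knockout replicate 2 was its highest knockout library, at 0.794 FPKM, though below the lowest wild type value of 0.902 FPKM. All 4 fibroblast markers and all 3 mesothelial markers that passed the filter had negative differences, and Col3a1, Fap and Lrrn4 among them did not overlap. Of all tested genes in crypts 52.8% had a positive difference, and 5.15% were lower and 6.79% higher without overlap. The macrophage sum was 15.6, 11.7 and 22.0 against 11.03, 17.1 and 4.66 FPKM (led by C1qb). Relative to the mean of all 10 fibroblast markers, of which only 4 passed the filter, the difference was -0.62 for Aebp1 and -0.12 for Sparc. On this scale those of Thbs1 and Spp1 turned to 0.21 and 0.29. The part of stromal cells in these values was not tested.

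**Figure D3:**
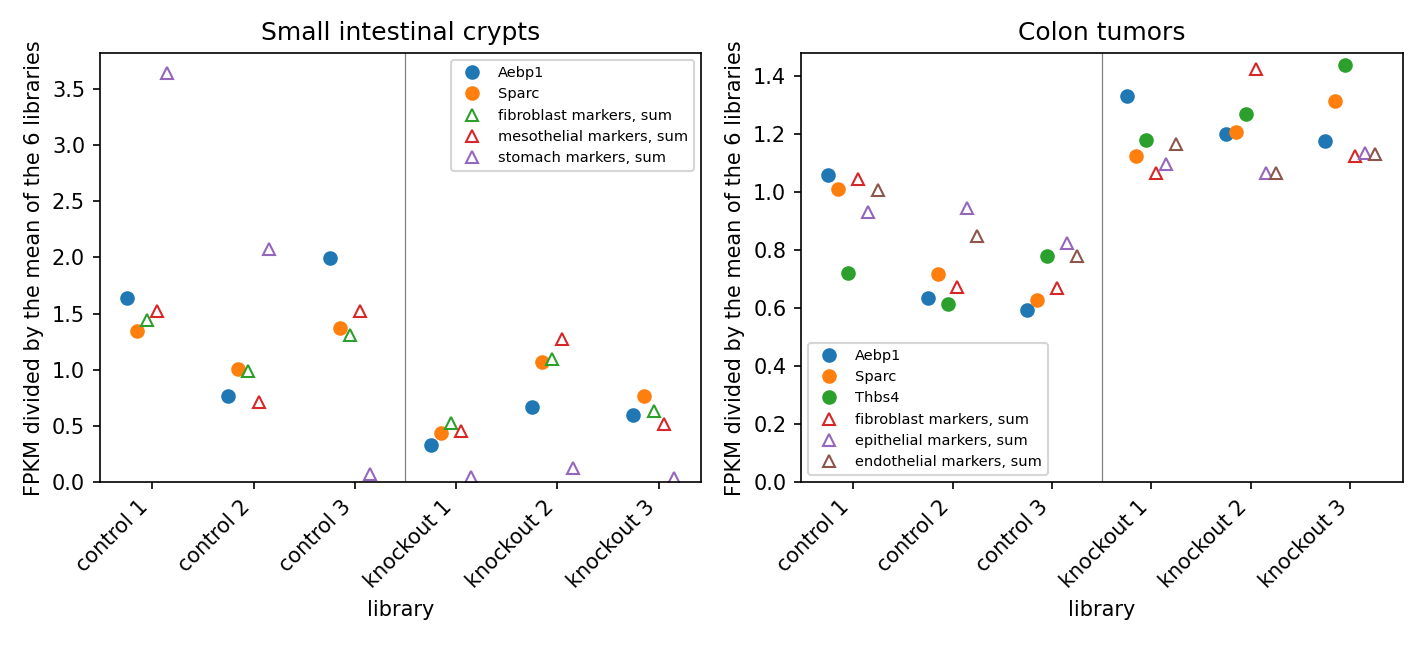
Levels of Aebp1, Sparc and Thbs4 (circles) and summed levels of marker lists (open triangles) in each library, each divided by its mean over the 6 libraries of the tissue. In crypts the fibroblast and mesothelial sums are high in the same libraries as Sparc, and the stomach sum is high in controls 1 and 2 alone, while in tumors every series shown is higher in each knockout library than in each control library.

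The other lists in crypts were low or overlapped in their sums. Lymphocyte markers summed to 50.01 to 59.1 FPKM (led by Cd8a), endothelial markers to 0.850 to 1.31 (Pecam1), smooth muscle markers to 0.395 to 0.938 (Tagln), pericyte markers to 0.468 to 0.743 (Pdgfrb), platelet markers to 0.482 to 1.36 (Itga2b) and neutrophil markers to 0.0592 to 0.246 (Csf3r). Of the lymphocyte markers, Ptprc and Jchain were lower (-0.27 and -0.45) and Cd3d was higher (0.44) without overlap. Lmod1, S100a8, Ly6g, Mpo, Ppbp and Treml1 were listed at 0 in all 6 crypt libraries.

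Genes of related function were taken from 5 lists. No gene of these lists passed an adjusted p of 0.05 in either tissue. In tumors, 18 of 21 tested genes for other matricellular proteins had a positive difference, with a median of 0.22 against 0.01 over all tested genes, and 7 did not overlap, all higher. Of all tested genes 51.3% had a positive difference, and 11.4% were higher and 10.6% lower without overlap, which also stands beside the counts of the other lists in tumors. With libraries rescaled to the same sum of FPKM the median of all tested genes was -0.09, and the medians were 0.15 for other matricellular proteins, 0.28 for structural glycoproteins, 0.15 for proteoglycans, 0.13 for receptors and 0.18 for regulators and enzymes. In the same order, these lists then had 17, 14, 8, 13 and 13 positive differences, 4, 3, 2, 4 and 4 genes higher without overlap and 0, 1, 1, 2 and 0 lower. On that scale 36.7% of all tested genes were positive, and 5.72% were higher and 17.5% lower without overlap. Ctgf, a growth-factor-binding protein of the CCN family, was at 22.6, 26.2 and 19.7 FPKM in APCmin/+ and 43.8, 45.4 and 32.4 FPKM in APCmin/+;ieCtnnb1KO libraries, a difference of 0.81 (SE 0.19). Nov, of the same family, had a difference of 0.73 (SE 0.24), and its groups did not overlap either. The largest negative difference was that of Spock2, a testican, at -0.66 (SE 0.48), followed by Wisp2 at -0.15 (SE 0.41), both overlapping. Without knockout replicate 2 that of Spock2 was -0.35, without APCmin/+ replicate 3 it was -0.37, and that of Wisp2 turned to 0.10 without APCmin/+ replicate 2 and to 0.08 without knockout replicate 3. The 10 genes themselves had 8 positive differences and a median of 0.23, which was 0.14 with the same sum of FPKM and turned to -0.28 relative to the fibroblast markers, to -0.17 relative to the epithelial markers and to -0.05 relative to these without Cdx2.

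Of 19 tested structural glycoproteins, 17 had a positive difference in tumors (median 0.33), and 6 were higher and 1 was lower without overlap. Dpt, for dermatopontin, was at 0.87 (SE 0.34) and Mfap4, of the microfibrils, at 0.76 (SE 0.55), both overlapping, and Mfap4 was at 1.21 without APCmin/+ replicate 1 and 0.46 without APCmin/+ replicate 2. Fras1, a basement membrane protein of epithelia, was at 2.18, 3.77 and 3.78 against 1.77, 0.366 and 1.60 FPKM, a difference of -1.19 (SE 0.50) that was -0.74 without knockout replicate 2. Emilin2 was at -0.10 (SE 0.17), and at 0.02 without APCmin/+ replicate 1. Of 10 tested proteoglycans, 9 were positive (median 0.23), with 4 higher and 1 lower without overlap. Aspn, for asporin, was at 1.65, 1.91 and 1.59 against 2.61, 6.89 and 2.18 FPKM, a difference of 0.84 (SE 0.46), and Bgn, for biglycan, had a difference of 0.53 (SE 0.26). Without knockout replicate 2, the highest for Aspn, these were 0.38 and 0.35. Podn, for podocan, was lower in each knockout library, at 21.9, 30.3 and 34.8 against 17.7, 15.5 and 16.2 FPKM, a difference of -0.77 (SE 0.20).

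Among receptors of these proteins, 15 of 19 tested had a positive difference in tumors (median 0.24), with 6 higher and 1 lower without overlap. These counts moved with the scaling, to 12 positive, 5 higher and 4 lower with quantile normalization and to 13, 4 and 3 with the same sum without the 50 highest genes. The shares of all tested genes were 47.5%, 9.3% and 12.5% on the first of these scales and 36.5%, 5.91% and 18.3% on the second. Itgb5 and Itgb3, integrin subunits that pair with αV and bind osteopontin, periostin and fibronectin, had differences of 0.57 (SE 0.17) and 0.54 (SE 0.22). Itgb8, another partner of αV, was lower in each knockout library (-0.26, SE 0.07), and Cd47, the thrombospondin receptor, was at -0.09 (SE 0.08). Cd47 was at -0.16 without APCmin/+ replicate 2 and at -0.03 without APCmin/+ replicate 3. Of 18 tested regulators and enzymes, 16 were positive (median 0.28), and 5 were higher without overlap. Serpinh1, the collagen chaperone, was higher in each knockout library (0.84, SE 0.22). Adamts9, a protease that cleaves versican, and Tgfbr1 were at -0.28 (SE 0.22) and -0.10 (SE 0.08). Without knockout replicate 2 they were at -0.12 and -0.17. Adamts9 was at -0.18 without APCmin/+ replicate 1 and -0.45 without knockout replicate 1, and Tgfbr1 at -0.05 without knockout replicate 3.

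**Figure D4:**
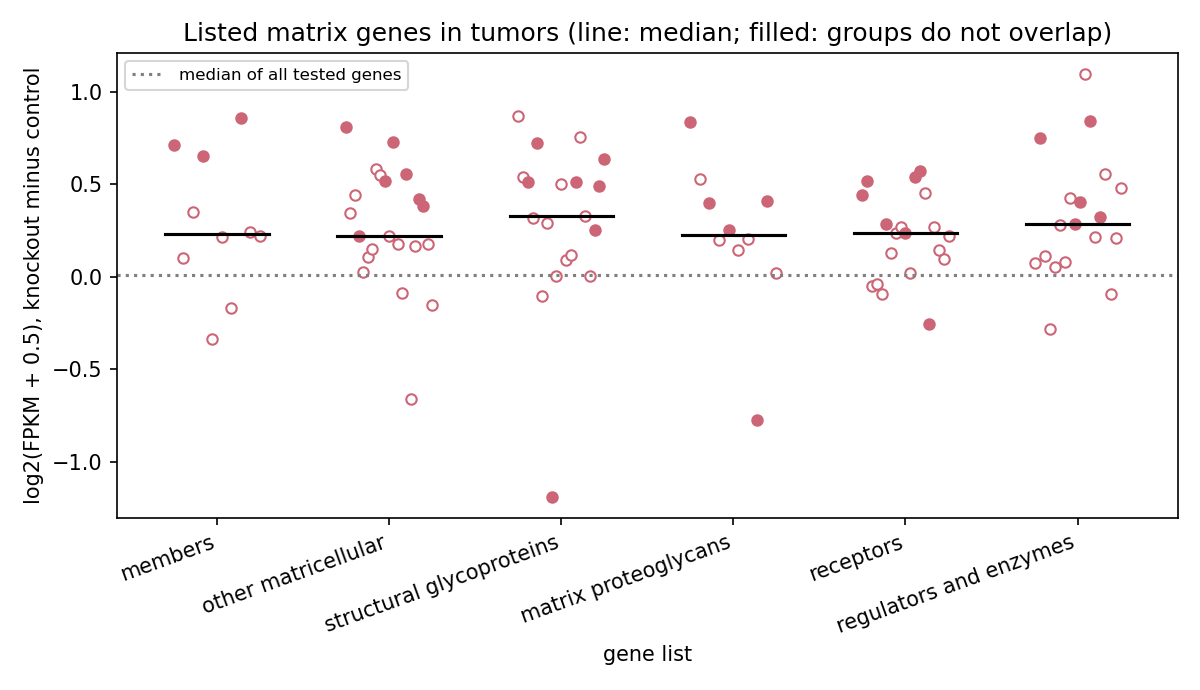
Difference in log2(FPKM + 0.5) between knockout and control tumors for each tested gene of the 6 lists, with the list median as a line, filled points where the groups of 3 libraries did not overlap and the median of all tested genes as a dotted line. The list medians lie between 0.22 and 0.33, against 0.01 for all tested genes.

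In crypts few genes of these lists were expressed, and the tested ones were 7 of 28 other matricellular genes (median -0.10), 5 of 21 structural glycoproteins (-0.36), 5 of 15 proteoglycans (-0.11), 15 of 20 receptors (-0.02) and 6 of 20 regulators and enzymes (-0.05), against 0.01 for all tested genes. Without wild type replicates 1 and 2, against 1 remaining wild type library, these medians were -0.32, -0.73, 0.02, 0.01 and -0.13, against 0.03 for all tested genes, and 13 of the 38 genes had the other sign. Of the 38 genes, 3 were lower without overlap and 0 were higher, beside 5.15% and 6.79% of all tested genes. Ltbp4, a microfibril protein that binds latent TGF-β, was at 1.28, 0.688 and 1.27 FPKM in wild type and 0.133, 0.471 and 0.540 FPKM in ieCtnnb1KO libraries, with a difference of -0.85 (SE 0.30) that was -1.04 without wild type replicates 1 and 2. Ecm1, a secreted matrix glycoprotein, was at 2.49, 1.95 and 1.72 against 1.17, 1.70 and 1.07 FPKM (-0.50, SE 0.20), and its difference was -0.31 without them. Itga4, an integrin subunit that is common on leukocytes, had a difference of -0.40 (SE 0.10), or -0.33 without them. The leukocyte genes Ptprc and Jchain were also lower without overlap in crypts and Cd3d was higher, as given above, and their part in the difference of Itga4 was not tested.

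The other genes named in crypts were those with up to 2 of the largest differences in each direction within each list, at a mean of at least 1 FPKM, and all of them overlapped. Igfbp7 was at -0.60 (SE 0.36), Efemp1 at -0.41 (SE 0.36) and Dcn at -0.59 (SE 0.45), and these were -0.49, -0.73 and -0.76 without wild type replicates 1 and 2. They were -0.36, -0.22 and -0.28 without knockout replicate 1, and -0.89, -0.68 and -0.95 without knockout replicate 2. Nid2 was at -0.13 (SE 0.15) and Hspg2 at -0.14 (SE 0.25), and these turned to 0.02 and 0.24 without wild type replicates 1 and 2. Tgfbr2, Itgav, Itgb6 and Tgm2 were at -0.33, -0.22, -0.16 and -0.12, and at -0.08, 0.05, -0.26 and -0.19 without those libraries. Tgfbr2 was at -0.18 without wild type replicate 1. Itgav and Itgb6 were at -0.10 and -0.07 without wild type replicate 2, and Tgm2 at -0.04 without knockout replicate 3. Among positive differences, Cd36 was at 0.72 (SE 0.67), Fbln1 at 0.45 (SE 0.37), Sdc4 at 0.17 (SE 0.15) and Smoc2 at 0.03 (SE 0.22). Without wild type replicates 1 and 2 these were 0.13, 0.15, 0.21 and 0.41. Cd36, Fbln1 and Sdc4 were at 1.24, 0.77 and 0.07 without knockout replicate 2, and at 0.34, 0.22 and 0.31 without knockout replicate 3. Smoc2 turned to -0.15 without wild type replicate 3 and to -0.03 without knockout replicate 2. Podn at 0.19 (SE 0.69) and Bmp1 at 0.12 (SE 0.61) turned to -0.85 and -0.83 without wild type replicates 1 and 2. They turned to -0.03 and -0.01 without knockout replicate 1. Spock3, Fbln7, Ibsp, Dmp1, Acan, Bcan, Ncan and Adamts5 were listed at 0 in all 6 crypt libraries.

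The genes most like Thbs4 and Aebp1 over the 12 libraries were sought among 11561 genes with a mean of at least 1 FPKM in both tables, after the mean of each table was subtracted. Pearson's r, given as a description, was 0.91 for Thbs4 with Triobp and 0.89, 0.89, 0.88 and 0.88 with Stk25, Ostf1, Atp2c2 and Adipor1. Triobp was at 4.86, 4.43 and 4.80 FPKM in APCmin/+ and 6.37, 5.94 and 6.39 FPKM in APCmin/+;ieCtnnb1KO libraries. For Aebp1, r was 0.92 with Derl3 and 0.90, 0.90, 0.89 and 0.89 with Plscr1, Klhl2, Shc1 and Ppm1f. Derl3 was at 1.91, 0.952 and 1.57 FPKM in wild type and 0.801, 1.05 and 1.07 FPKM in ieCtnnb1KO crypts. Thbs4 itself had a mean of 0.10 FPKM in crypts, on 1 to 10 fragments per library, and the contrast in tumors helped to choose it. The libraries share their genotype and tissue structure, so these values are no measure of shared control.

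Exons of 4 of the 10 genes share bases with another annotated gene in GENCODE M21. These are Thbs1 with Gm29233, Tnc with 8030451A03Rik, Fn1 with Apol7d and Spp1 with Gm42793, over 176 to 309 bases each. The partner genes had at most 0.150 FPKM in tumors, and the sources used here do not say whether the counting used strand.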

How the data were processed

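RNA-seq was performed on 12 libraries, 3 for each genotype of small intestinal crypts and of colon tumors. The authors aligned the reads and deposited FPKM values in 1 table per tissue. The submitters' processing notes name cutadapt, HISAT2, Cufflinks 2.2.1, DESeq2 and the build mm10. A median-of-ratios factor computed from either table was equal for its 6 libraries, so the values were already on that scale. Genes with a mean of at least 0.5 FPKM over the 6 libraries of a table were tested, on log2(FPKM + 0.5), with limma 3.58.1 (lmFit and eBayes with a variance trend, R 4.3.3) and Benjamini-Hochberg adjustment. The fit was tested on simulated data, and the outcome is not given here.

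The members and all gene lists were chosen with earlier results of these data known. The genotype contrast helped to choose the members, so they are given with no test. Named genes of the 5 other lists were those with the 2 largest log2 differences in each direction in each tissue at a mean of at least 1 FPKM. Ltbp4, Itga4, Xist, Cdx2 and the other marker genes quoted beyond the rule for markers were named after their values were seen. Of each marker list (epithelial, fibroblast, smooth muscle, pericyte, endothelial, macrophage, neutrophil, platelet, lymphocyte, mesothelial and stomach) the most abundant gene and those at 0 were named, and for Thbs4 and Aebp1 the 5 most like genes. Some genes that these rules name are not reported here. Alternatives covered the pseudocount, filter, scaling, variance model, replicate block, libraries left out and voom on the recovered fragments. Python 3.11.15 was used for all other steps.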

Additional observations from a re-analysis of the deposited data

Results flagged for a closer look

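Aebp1 had differences of opposite sign in the tissues, with all knockout libraries below all wild type libraries in crypts (-0.93) and all knockout libraries above all controls in tumors (0.71). Aebp1 was chosen for this pattern, and the difference between tissues was not tested. Ecm1 showed the same directions, at -0.50 in crypts and 0.22 in tumors, where its FPKM was 59.9, 57.7 and 63.3 in APCmin/+ and 66.0, 68.4 and 77.0 in APCmin/+;ieCtnnb1KO libraries. The difference between tissues was not tested for Ecm1 either. Some stromal genes had these signs as well, with differences in crypts and tumors of -0.44 and 0.65 for Sparc, -0.60 and 0.52 for Igfbp7, -0.59 and 0.40 for Dcn and -0.54 and 0.67 for Col3a1. These genes were picked for their signs, and no tally over the lists is given. Sparc, Igfbp7 and Dcn overlapped between genotypes in crypts and Col3a1 in tumors. Without knockout replicate 1 the crypt values of Sparc, Igfbp7 and Dcn were -0.27, -0.36 and -0.28. Some other matrix genes did not have both signs, with 0.19 and -0.77 for Podn, 0.03 and -0.09 for Smoc2 and 0.45 and 0.03 for Fbln1. Of the fibroblast markers that passed the filter, 4 of 4 were negative in crypts and 9 of 9 positive in tumors. Of all tested genes 52.8% were positive in crypts and 51.3% in tumors. The part of the fibroblast markers in the pattern was not tested.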

How the results depend on the processing

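For the 14 member differences (10 in tumors and 4 in crypts), 253 of 284 alternative values moved by less than the spread between replicates and 31 moved by more. Over all of them Thbs4 in tumors ranged from 0.35 to 0.93, Aebp1 from 0.20 to 0.96 and Sparc from 0.14 to 0.85, while in crypts Aebp1 ranged from -1.45 to -0.62 and Sparc from -0.78 to -0.12, and none of these 5 changed sign. Of the 14 differences, 8 had the other sign under at least 1 alternative, Fn1 in tumors under 7 of 21 and Spp1 in crypts under 10 of 18. The median over the 10 genes in tumors was 0.23, but 0.14 with the same sum of FPKM and 0.13 with the same sum without the 50 highest genes, -0.28 relative to the fibroblast markers, -0.17 relative to the epithelial markers and -0.0522 relative to the epithelial markers without Cdx2. The count of genes higher in every knockout library was 3, but 0 relative to the fibroblast markers, 0 relative to the epithelial markers and 1 relative to these without Cdx2. With the same sum of FPKM Aebp1 overlapped, while Thbs4 and Sparc stayed higher in every knockout library, beside 5.72% of all tested genes. The cause was not tested. Shares of all tested genes on the marker scales are not given, so nothing is read from these counts. With 1 library left out the median over the 10 genes in tumors ranged from 0.10 (without APCmin/+;ieCtnnb1KO replicate 2) to 0.37 (without APCmin/+;ieCtnnb1KO replicate 3 or APCmin/+ replicate 1). The median over the 4 genes that reached the filter in crypts was -0.27, and it was -0.40 with a pseudocount of 0.1, -0.0503 over all 10 genes without a filter, -0.52 with a filter of 1 FPKM, -0.46 with voom, -0.45 as a ratio of group means, 0.0429 relative to the fibroblast markers and -0.14 without wild type replicates 1 and 2. It ranged from -0.39 to -0.22 with 1 library left out.

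The count of genes past an adjusted p of 0.05 in crypts ranged from 0 to 3 with 1 library left out. The 3 genes, Pgc, Gkn2 and Gkn1, were called in limma without wild type replicate 3, which leaves the libraries with stomach markers as the only wild type ones. In tumors 1 gene, Mir3473e, passed without the variance trend. In crypts and in tumors the fit with the replicate number as a block called 0 genes. Same-numbered libraries had correlations of -0.05, -0.12 and 0.04 in crypts and 0.05, -0.09 and 0.05 in tumors. With 3 libraries per group these values cannot show whether the numbers pair libraries. Tumor replicate 3 of both genotypes shared a high level of Xist, at 113.9 and 61.4 FPKM. Of genes at an unadjusted p under 0.05 in tumors, 46.4% were higher with quantile normalization and 27.1% with the same sum without the 50 highest genes. The alternatives relative to the epithelial markers with and without Cdx2, without wild type crypt replicates 1 and 2 and without tumor replicate 3 of both genotypes, and the counts by scaling of non-overlapping members and of the other lists in tumors, and the named genes of these lists with 1 library left out, were chosen after seeing the data. With 3 libraries per group and few fragments in crypts, 6 of the 10 genes could not be compared there.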
